A study of Mus musculus with 24 samples.

Results

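The effect of environmental enrichment was examined in the hippocampus of aged mice that carry a kinase-dead form of MSK1 (MSK1 KD). The comparison set 6 enriched animals (KDEE, mice 9, 12, 14, 15, 20 and 22) against 5 standard-housed animals (KDSH, mice 1, 3, 8, 18 and 24), 11 of the 24 libraries in the series. Libraries were chosen by genotype and housing as labelled. KDSH 6 was left out, following the published choice of libraries. All animals were male, on a C57Bl/6J background, and 21 to 23 months old when the hippocampus was taken. KDEE mice had moved at 18 months into large cages with running wheel, tubes, ladder and toys, whereas KDSH mice stayed in standard cages. Both groups were homozygous for the same knock-in mutation, which inactivates MSK1 in every cell, and were bred as a line apart from the wild-type mice. Genotype could therefore not be separated from line, but housing was compared within the line. The study kept more males together in enriched than in standard cages. The cage of each mouse is not given, so cage and group size cannot be told apart from housing. Each library came from 1 mouse with no behavioural training, and polyadenylated RNA was sequenced.

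MSK1, encoded by Rps6ka5, is a nuclear kinase that the ERK and p38 MAP kinases switch on. It phosphorylates the transcription factor CREB and histone H3, and it links neurotrophin signals such as BDNF to the transcription of activity-regulated genes. Enrichment is known for its effects on neurotrophins, synapses, newborn granule cells and glia in the hippocampus, which is why those gene groups were followed here along with markers of neighbouring tissues.

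Depth was similar in both groups, with 40066727 to 48985101 read pairs assigned to genes per KDSH library and 27410239 to 50910416 per KDEE library. Values below are normalized counts, that is, read pairs scaled to one common library size. They compare a gene between mice and not genes with each other. Markers of hippocampal neurons were present in all 11 libraries, with Prox1, a transcription factor of granule cells, at 3340 to 5280 normalized counts. Rps6ka5 itself lay between 1107 and 1191 normalized counts in the 11 mice, with overlapping groups and a log2 fold change of -0.02 ± 0.10 (SE, KDEE minus KDSH). The knock-in alters a residue of the protein and not its transcript level, so this count does not check the genotype.

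Carry-over of neighbouring tissue was uneven between libraries and was largest in KDEE 12 and 14. Ttr, the thyroid hormone carrier made by the choroid plexus, measured 3585, 233, 316, 1030 and 1552 normalized counts in KDSH 1, 3, 8, 18 and 24. In KDEE mice it ranged from 3027 to 434900 with a median of 4095. KDEE 12 at 434900 and KDEE 14 at 119800 stood far above the rest, and the other 4 KDEE libraries lay at 3027 to 4210, close to or above the highest KDSH value. Mean log2 CPM, the log2 of library-scaled counts, of Ttr was 4.08 higher in KDEE (exact two-sided permutation test over 462 splits, p = 0.0216, smallest possible p 0.00216), but on the linear scale the same exact test gave p = 0.188. Leaving out 1 KDSH mouse, namely 3, 8, 18 or 24, raised the exact permutation p to between 0.0619 and 0.0714. Without KDEE 12 and 14 the edgeR log2 fold change was 1.42, against 6.14 ± 2.13 (SE) with them.

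The rest of the choroid plexus list was high in the same libraries. Without Ttr, its genes took 0.0228 to 0.0321% of counts in KDSH, 0.484% in KDEE 12, 0.136% in KDEE 14 and 0.0301 to 0.0328% in the other 4 KDEE libraries. Single wild-type libraries of both housings were high too, with 0.238% in WTSH 19, 0.169% in WTEE 10 and 0.303% in WTEE 13. The other wild-type libraries kept lay at 0.0227 to 0.0308%. All 20 genes of the list, Ttr included, were higher in KDEE at an unadjusted edgeR p under 0.05, a mark reached in that direction by 5.64% of all genes tested, and the median log2 fold change was 2.85. Without KDEE 12 alone 1 of the 20 reached it with a median of 1.46, and without KDEE 12 and 14 none did and the median was 0.45. Aqp1, the water channel of choroid plexus epithelium, lay at 15.1 to 30.6 normalized counts in KDSH and at 34.5 to 40.0 in the 4 KDEE libraries other than 12 and 14, where it was 2655 and 764. In bulk tissue, fewer cells of a type and less RNA per cell cannot be told apart, and the same holds for more of either.

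Pituitary RNA was concentrated in KDSH 8. Gh, growth hormone, measured 307, 13.96, 6162, 0 and 1.17 normalized counts in KDSH 1, 3, 8, 18 and 24, and 0.954 to 37.7 with a median of 7.88 in KDEE. Apart from KDSH 8 and KDSH 1, the groups covered the same low range. Pomc, the precursor of adrenocorticotropic hormone, was 4603 in KDSH 8 and 40.0 to 78.9 in the other 10 libraries. The log2 CPM of Gh was lower by 2.39 on average in KDEE, with an exact permutation p of 0.303, and the difference shrank to -0.62 without KDSH 8. In KDSH 6, which was left out, Gh was 16290 and Ttr 1315 normalized counts. With that mouse included the exact permutation p was 0.147 for Gh and 0.00649 for Ttr.

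**Figure D1:**
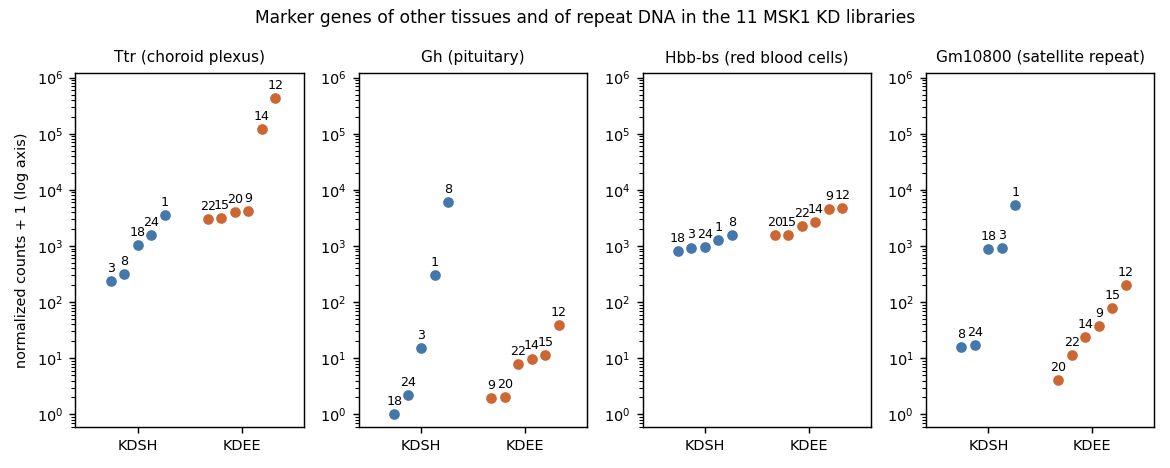
Normalized counts plus 1 (log axis) of Ttr, Gh, the haemoglobin gene Hbb-bs and the satellite repeat model Gm10800 in KDSH and KDEE, with 1 point per library labelled by mouse number and sorted by value within a group. Ttr is highest in KDEE 12 and 14, Gh is highest in KDSH 8, Hbb-bs is higher in most KDEE than KDSH mice, and Gm10800 spreads widely within both groups.

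Blood markers differed between the groups. Hbb-bs, an adult beta globin chain, measured 1269, 939, 1591, 821 and 957 normalized counts in KDSH 1, 3, 8, 18 and 24 and 1545 to 4710 with a median of 2433 in KDEE. The groups overlapped through KDSH 8 alone, and the log2 fold change was 1.37 ± 0.44 (SE). Of the 8 red blood cell genes tested, 6 were higher at an unadjusted p under 0.05 (75%, against 5.64% of all genes). Among them were Hba-a1, the Alas2 gene of haem synthesis and Bpgm. The median of the list was 1.22, and it stayed at 0.98 without KDEE 12 and 14. In the wild-type comparison the same list had a median of 1.33.

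Across all genes, few or no differences passed adjustment in MSK1 KD mice, depending on the tool. The number of calls is not a measure of the size of the effect. None of 20187 genes passed edgeR's quasi-likelihood test (adjusted p under 0.05 and an absolute log2 fold change above 0.38, 0%), and the smallest adjusted p was 0.288. At an unadjusted p under 0.05, edgeR gave 1138 higher (5.64%) and 1207 lower genes (5.98%). These shares were 9.65% and 10.9% in the 11 KD libraries alone, and 11.8% and 10.3% without the wild-type library WTEE 10. KDEE and KDSH did not overlap for 183 genes that were higher (0.907%) and 189 that were lower (0.936%). DESeq2's Wald test, the method of the study, called 14 of 16167 genes (0.0866%), of which 6 were higher and 8 lower in KDEE. The log2 fold changes of all genes tested centred on 0.00, with quartiles of -0.12 and 0.13.

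Fewer genes reached the unadjusted mark without the pair of libraries rich in choroid plexus RNA. Without KDEE 12 and 14, 410 higher (2.04%) and 549 lower genes (2.74%) were at an unadjusted edgeR p under 0.05, and DESeq2 called 0 genes. Of the 1138 higher genes, 342 (30.1%) were among those 410 (83.4% of them). Of the 1207 lower genes, 489 (40.5%) were among those 549 (89.1% of them). Of the higher and lower genes tested in both fits, 1109 of 1114 and 1206 of 1206 kept their sign. The genes were picked by their p in the full fit, and both fits share all the other mice. Shared genes and kept signs are therefore no independent evidence. Leaving out 2 mice also lowers the power, and the part of each was not tested.

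Of the 14 genes called by DESeq2, Ttr, Cdh3 and Gh followed the carry-over described above. Cdh3, P-cadherin, was at 1 count in each KDSH library and at 384 and 131 normalized counts in KDEE 12 and 14, against 1.03 to 15.5 in the other KDEE mice. No fold is given for it, because the KDSH libraries lay under 3 counts. The other 11 were measured well above that floor, and their values are given in turn.

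Genes of signalling and immunity were found among the higher calls. Plekho2, which encodes a pleckstrin homology domain protein expressed in macrophages (chromosome 9, 65552698 to 65580040, minus strand, GRCm38), measured 785, 893, 646, 661 and 776 normalized counts in KDSH 1, 3, 8, 18 and 24. In KDEE mice it ranged from 957 to 1136 with a median of 1033. Every KDEE mouse was above every KDSH mouse. The log2 fold change was 0.47 ± 0.10 (SE), with an adjusted p of 0.297 by edgeR and 0.0333 by DESeq2, and it was 0.44 without KDEE 12 and 14.

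Wnt3, a secreted ligand of the canonical Wnt pathway (chromosome 11, 103774150 to 103817957, plus strand), lay at 77.0, 90.8, 91.9, 86.7 and 85.8 normalized counts in KDSH 1, 3, 8, 18 and 24. KDEE values were 100.2 to 162 with a median of 131, again without overlap. The log2 fold change of Wnt3 was 0.61 ± 0.13 (SE; adjusted p 0.297 by edgeR, 0.0333 by DESeq2). Tnfaip2, a gene induced by tumour necrosis factor, stood at 241 to 256 in 4 KDSH mice, at 349 in KDSH 18 and at 336 to 566 in KDEE, with a log2 fold change of 0.58 ± 0.13. KDSH 18 reached into the KDEE range, and KDEE 22 held the highest value. Ighm, the constant region of the IgM heavy chain, lay at 788 to 1126 in KDSH and 1179 to 1359 in KDEE without overlap, with a log2 fold change of 0.48 ± 0.11. Its difference in wild-type mice was 0.68 ± 0.12.

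Among the lower calls, Sycp2 had the smallest p of all genes by both tools. Sycp2 encodes a protein of the axis of meiotic chromosomes (chromosome 2, 178345293 to 178407685, minus strand). Its values were 94.3, 138, 128, 107 and 120 normalized counts in KDSH 1, 3, 8, 18 and 24, and 57.2 to 81.1 with a median of 71.3 in KDEE. No KDEE mouse reached the lowest KDSH mouse. The log2 fold change was -0.74 ± 0.13 (SE), with an adjusted p of 0.288 by edgeR and 0.00637 by DESeq2.

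Traip and Banp, with roles in the response to DNA damage and in chromatin, were lower by a similar size. Banp, a nuclear protein that binds DNA and interacts with p53 (chromosome 8, 121949750 to 122029258), lay at 1407, 1612, 1600, 1165 and 1485 normalized counts in KDSH and at 910 to 1059 in KDEE, with no overlap. The log2 fold change of Banp was -0.55 ± 0.12. Traip, a ubiquitin ligase active at stalled replication forks, lay at 1455, 1505, 1484, 1110 and 1320 in KDSH and 876 to 1131 in KDEE, with KDEE 22 above KDSH 18. Its log2 fold change was -0.48 ± 0.11.

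The other 4 lower calls were a mixed group. Myo1h, an unconventional myosin, was at 96.2 to 150 normalized counts in KDSH and 68.3 to 98.3 in KDEE (log2 fold change -0.66 ± 0.13), and the groups met at KDSH 18 and KDEE 9. Acrbp, the proacrosin-binding protein of sperm, was at 310 to 434 in KDSH and 212 to 322 in KDEE (-0.52 ± 0.13), with KDEE 20 inside the KDSH range. C4a was at 144 to 188 in KDSH and 87.7 to 125 in KDEE (-0.68 ± 0.16), and the noncoding gene Gm26621 was at 38.1 to 54.3 and 18.7 to 31.0 (-0.84 ± 0.16), both without overlap. C4a is nearly identical to the complement gene C4b, which lay at 8912 to 16020 in KDSH and 11050 to 17450 in KDEE, so reads may have been split between them and the C4a value is uncertain. Counting did not use strand, and 1530 of the 5927 exon bases of Myo1h overlap Kctd10 on the opposite strand, while 975 of 3277 in Acrbp overlap the noncoding Gm44597.

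**Figure D2:**
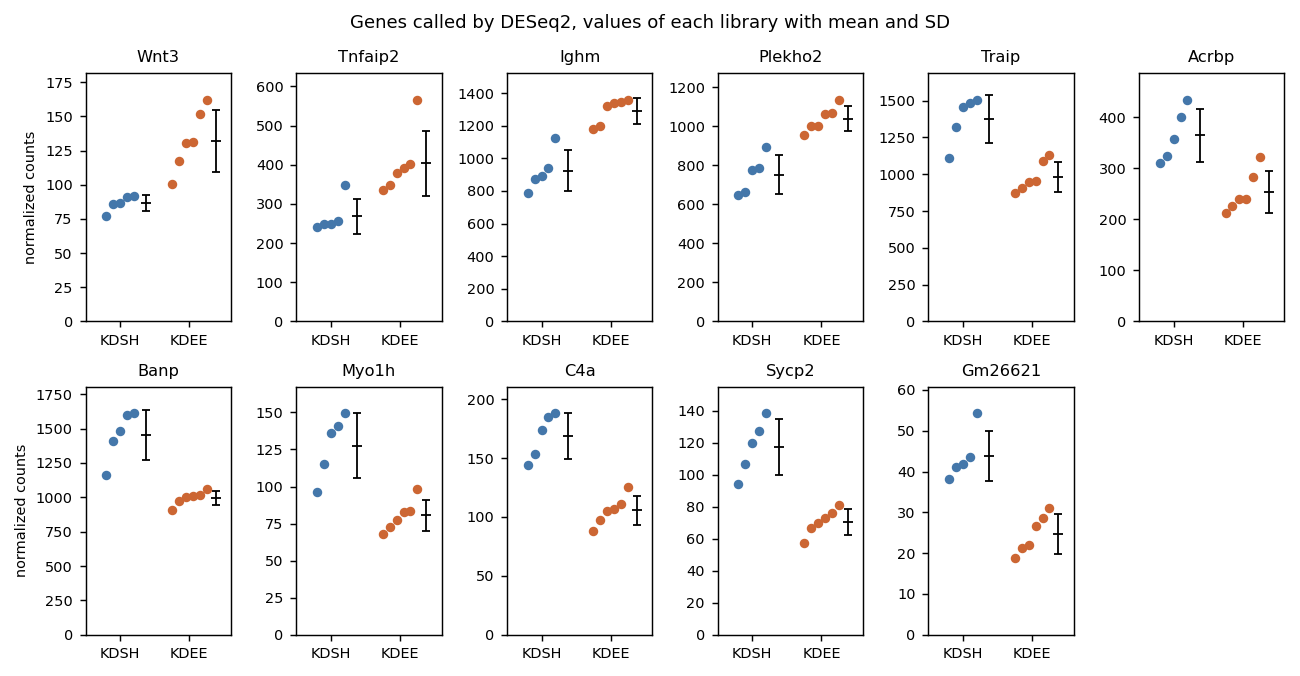
Normalized counts of 11 genes called by DESeq2 between KDSH and KDEE (Ttr, Gh and Cdh3 are not drawn), with 1 point per mouse sorted by value and the mean with SD beside each group. Sycp2, Banp, C4a and Gm26621 lie lower and Plekho2, Wnt3 and Ighm higher in every KDEE mouse than in every KDSH mouse, and the groups of the other 4 genes overlap.

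The calls by DESeq2 were sensitive to single mice, with 0 calls when KDSH 8, KDEE 14 or KDEE 15 was left out and 206 when the wild-type mouse WTEE 10 was. Over the 21 fits that each left out 1 mouse of any group, Sycp2 was called in 17, Plekho2 in 12, Myo1h in 11, Tnfaip2 and Cdh3 in 9, Banp, Ighm and Wnt3 in 8, Gm26621, Traip and Gh in 7, and Acrbp, C4a and Ttr in 6. Without KDEE 12 and 14 the DESeq2 log2 fold changes of Banp, Wnt3, Tnfaip2 and Ighm were -0.54, 0.60, 0.63 and 0.49, with adjusted p from 0.381 to 0.800. When KDSH 6 and the pair of wild-type libraries left out by the study were put back, 22 genes were called, and Sycp2, Wnt3 and Gm26621 were no longer among them. In a fit of the 11 MSK1 KD libraries alone, edgeR called 1 gene, Banp (log2 fold change -0.55 ± 0.07 SE, adjusted p 0.0387).

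Promoters of the named genes were searched for the CREB site, because MSK1 acts on CREB. The letters used were TGACGTCA for the full site and TGACG, or CGTCA on the other strand, for the half-site, which also lies within the full site. RefSeq sequences (GRCm38.p6) from 250 bases before to 50 after a gene's start existed for 16 of the 33 named genes, with 18 promoters. The full site was in 0 of them and in 1.79% of all 32851 promoters, and the half-site was in 4 genes (Acrbp, Dusp16, Mapkapk5 and Rps6ka5) and in 20.8% of all promoters. A match is a description of letters and not of binding. Sequences are given, with half-sites in capitals, for the genes with the smallest p among the lower and higher calls, Sycp2 (chr2:178407609-178407908, minus strand) and Plekho2 (chr9:65580038-65580337, minus strand), which held no match. They are followed by the MAP kinase genes with a match, Mapkapk5 (chr5:121545843-121546142, minus strand, 2 half-sites) and Dusp16 (chr6:134792579-134792878, minus strand, 1 half-site 70 bases before the start).
Sycp2: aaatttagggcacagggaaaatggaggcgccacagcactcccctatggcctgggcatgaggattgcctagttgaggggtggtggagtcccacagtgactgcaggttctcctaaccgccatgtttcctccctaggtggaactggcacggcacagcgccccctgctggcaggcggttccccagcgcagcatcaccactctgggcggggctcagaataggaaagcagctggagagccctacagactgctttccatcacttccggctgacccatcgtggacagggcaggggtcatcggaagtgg
Plekho2: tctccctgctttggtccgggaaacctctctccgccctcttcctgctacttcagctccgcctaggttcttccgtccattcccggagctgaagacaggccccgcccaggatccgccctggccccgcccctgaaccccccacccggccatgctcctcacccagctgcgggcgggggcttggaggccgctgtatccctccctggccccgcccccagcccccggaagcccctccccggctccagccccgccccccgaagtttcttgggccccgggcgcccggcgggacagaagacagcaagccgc
Mapkapk5: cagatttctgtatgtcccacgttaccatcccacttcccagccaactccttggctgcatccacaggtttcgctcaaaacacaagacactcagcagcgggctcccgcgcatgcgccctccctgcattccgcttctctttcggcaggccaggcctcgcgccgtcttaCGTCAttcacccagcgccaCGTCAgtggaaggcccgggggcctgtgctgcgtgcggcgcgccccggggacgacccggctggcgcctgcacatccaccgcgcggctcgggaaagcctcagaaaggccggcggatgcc
Dusp16: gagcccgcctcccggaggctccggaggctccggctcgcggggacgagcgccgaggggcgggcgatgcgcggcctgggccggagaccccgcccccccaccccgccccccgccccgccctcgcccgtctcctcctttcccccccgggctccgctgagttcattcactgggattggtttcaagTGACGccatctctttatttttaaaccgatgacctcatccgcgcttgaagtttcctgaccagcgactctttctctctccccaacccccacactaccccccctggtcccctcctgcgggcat

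Of the 20187 genes tested, 0.907% were higher and 0.936% lower with no overlap between KDEE and KDSH. Of these, 34 higher and 22 lower genes, counting those calls, also had an absolute log2 fold change above 0.38 and at least 50 normalized counts on average. The 12 in each direction with the smallest unadjusted p include 3 of the higher and 3 of the lower calls above, and the others follow here. All had an adjusted p of at least 0.288 by edgeR. Dual-specificity phosphatases that act on the JNK and p38 MAP kinases were among the higher genes. Dusp10 measured 254, 253, 272, 224 and 208 normalized counts in KDSH and 279 to 349 in KDEE, with a median of 344. Dusp16 measured 741, 752, 649, 883 and 726 in KDSH and 896 to 1136 in KDEE, with a median of 931. Both were above the KDSH range in all 6 KDEE mice, which the choice of these genes required. Their log2 fold changes were 0.46 ± 0.12 and 0.39 ± 0.12, and 0.43 and 0.29 without KDEE 12 and 14.

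The lower gene Mapkapk5, a kinase downstream of p38 and related MAP kinases, measured 115, 147, 107, 101 and 101 normalized counts in KDSH and 65.8 to 98.5 in KDEE. All KDEE mice lay below the lowest KDSH mouse, which its choice required, and the log2 fold change was -0.48 ± 0.14. Of its 3195 exon bases, 1805 are shared with Adam1a on the same strand, so reads there could not be assigned to either gene.

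Id2, an inhibitor of helix-loop-helix transcription factors, was at 2670 to 2946 normalized counts in KDSH and 3223 to 3754 in KDEE (log2 fold change 0.38 ± 0.09). Cd14, the lipopolysaccharide co-receptor of microglia and macrophages, was at 98.7 to 145 and 156 to 188 (0.53 ± 0.13). Fzd6, a Wnt receptor, was at 344 to 421 and 433 to 763 (0.43 ± 0.13). The Fzd6 value was highest in KDEE 12, and its difference was 0.25 without KDEE 12 and 14. Sctr, the secretin receptor, Smim1, a small membrane protein of red blood cells, Tnni1, a troponin of slow muscle, and the pseudogene Mpc1-ps completed the higher group, with log2 fold changes of 0.45, 0.48, 0.58 and 0.44. In Smim1, 1044 of the 5761 exon bases overlap Lrrc47 on the opposite strand, and counting did not use strand.

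Among the other lower genes, Fbln2, an extracellular matrix protein, lay at 649 to 880 normalized counts in KDSH and 486 to 587 in KDEE (log2 fold change -0.47 ± 0.12). Slc44a5, a choline transporter-like protein, lay at 1942 to 2586 and 1562 to 1749 (-0.45 ± 0.12). Zmym1 lay at 555 to 710 and 409 to 524 (-0.41 ± 0.12), although 1709 of its 4164 exon bases overlap Gm12940 on the opposite strand. Crip3, Fam150b and the gene models Gm20219, Gm44831 and RP23-361B11.3 had log2 fold changes of -0.65, -0.54, -0.61, -0.76 and -0.57.

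Differences in the signalling pathway of MSK1 itself were small, and the count at the unadjusted mark depended on the fit. Of 20 genes for MSK, RSK and CREB signalling, 1 was higher and 2 lower at an unadjusted p under 0.05. These shares (5% and 10%, against 5.64% and 5.98% of all genes) are near the background of the main fit. In the 11 KD libraries alone 0 were higher and 7 lower, against 9.65% and 10.9% of all genes. Without WTEE 10, 1 was higher and 6 lower, against 11.8% and 10.3%. The median log2 fold change was -0.07, and without KDEE 12 and 14 it was -0.05, with 0 higher and 2 lower. Mapk14, p38 alpha and an activator of MSK1, measured 5273, 5408, 5283, 4974 and 5462 normalized counts in KDSH and 4544 to 4894 in KDEE. The groups did not overlap, with a difference of -0.16 ± 0.04. The CREB coactivator Crtc2 was lower by the same mark (-0.15 ± 0.06) and the kinase gene Rps6ka1 higher (0.18 ± 0.09). Rps6ka4, which encodes the close relative MSK2, had a log2 fold change of 0.02 ± 0.06. Among 11 neurotrophin and receptor genes none reached the mark, and Bdnf lay at 1506 to 1620 in KDSH and 1436 to 1747 in KDEE (0.05 ± 0.08). For every list below, the background at this mark is the share of all genes, 5.64% higher and 5.98% lower. Unless another fit is named, list counts are from the fit of 21 libraries. Without KDEE 12 and 14 that background was 2.04% and 2.74%.

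Immediate early and activity genes leaned lower in KDEE. Of 22, 18 had a negative log2 fold change, and the median was -0.15. At an unadjusted p under 0.05, 4 were lower (18.2%, against 5.98% of all genes) and 0 higher. The count was 1 without KDEE 12 and 14, 1 without KDSH 3, KDSH 8 or KDEE 9, 2 without KDEE 12, and 0 with the choroid plexus covariate (median -0.09) or without KDSH 8 and KDEE 12 and 14 (-0.18). Homer1, a postsynaptic scaffold gene with an activity-induced short form, measured 4125, 4620, 6947, 4311 and 4488 normalized counts in KDSH and 3586 to 4058 in KDEE. The groups did not overlap, KDSH 8 stood above the rest, and the log2 fold change was -0.36 ± 0.13. Fosb, Nr4a3 and Fosl2, all activity-induced transcription factors, gave -0.43 ± 0.17, -0.28 ± 0.12 and -0.30 ± 0.14, whereas Fos gave -0.14 ± 0.27. In wild-type mice the median of the list was -0.03, with Homer1 at -0.43 and Nr4a3 at -0.29. Per2, a clock gene that also responds to activity, gave -0.49 ± 0.16 in KD and -0.51 ± 0.17 in WT mice. The animals' time of day at dissection is not given in the sources used here.

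Synaptic and neuronal groups had few members at the mark in the fit of 21 libraries. Gria3 was 1 of 11 AMPA and NMDA receptor subunits lower at the mark (-0.17 ± 0.08). Of the 11, 9 were negative, and the median of the list was -0.14. In the 11 KD libraries alone 4 were lower (10.9% of all genes), and also 4 without WTEE 10 (10.3%). Leaving out 1 KD mouse gave 0 to 4. Without KDEE 12 and 14 it was 0, with a median of -0.09. Gria1 lay at 42570 to 50440 normalized counts in KDSH and 38540 to 44820 in KDEE (-0.15 ± 0.09), and Gria2 at 37190 to 42910 and 29430 to 39200 (-0.24 ± 0.12). No member reached the mark among 12 GABA-A receptor subunits, 20 genes of synaptic vesicle release, 14 markers of hippocampal neurons, 12 of interneurons and 15 of adult neurogenesis, with medians of -0.05, -0.07, -0.08, 0.09 and 0.04. Dcx, a marker of newborn neurons, lay at 955 to 1456 in KDSH and 906 to 1522 in KDEE.

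Myelin genes formed the group with the most members at the mark among the glial lists. Of 16 genes of mature oligodendrocytes, 11 were higher at an unadjusted p under 0.05 (background 5.64%) and none was lower, all 16 had a positive log2 fold change, and the median was 0.28. Mbp, myelin basic protein, measured 137400, 154300, 124700, 174600 and 134100 normalized counts in KDSH and 152400 to 192500 in KDEE with a median of 190300. KDSH 3 and 18 lay inside the KDEE range and KDEE 9 and 20 inside the KDSH range. The log2 fold change of Mbp was 0.31 ± 0.11 (SE), that of Car2, carbonic anhydrase of oligodendrocytes, 0.29 ± 0.09, and that of the adhesion protein gene Mag 0.27 ± 0.10. Without KDEE 12 and 14 the median was 0.24 with 4 members at the mark, and without KDSH 8 alone it was 0.23, also with 4. Leaving out KDSH 24 gave 6, KDEE 22 gave 7, and the other KD mice 8 to 14. Without KDSH 8 and KDEE 12 and 14 none reached the mark and the median was 0.20, and with the choroid plexus covariate 3 did. In wild-type mice the median was 0.18.

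Precursors and astrocytes showed the same direction at smaller size. Of 12 genes of oligodendrocyte precursors, Olig1, Pdgfra, Bcas1 and Olig2 were higher and Gpr17, a receptor of committed precursors, was lower, with a median of 0.20. Only 1 was higher without KDEE 12 and 14, where the median was 0.12, and 2 were higher without KDSH 8 or KDSH 24. Of 16 astrocyte genes, 6 were higher and all had a positive log2 fold change, with a median of 0.18. Gfap, the intermediate filament of astrocytes, lay at 25000 to 35350 normalized counts in KDSH and 31930 to 46230 in KDEE (0.29 ± 0.11), and Fgfr3 at 5675 to 6801 and 6769 to 7914 (0.19 ± 0.07). The astrocyte median was 0.16 without KDEE 12 and 14, with 2 members at the mark. The count was 2 without KDSH 24, 3 without KDEE 12 or KDEE 14, and 4 without KDEE 9.

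Microglial genes leaned higher in both of the lists used. Of 15 homeostatic markers, 2 were higher (Siglech and Aif1), all 15 were positive, and the median was 0.16. That count was 0 to 5 when 1 KD mouse was left out, with 0 without KDSH 24, KDEE 9 or KDEE 15. P2ry12, a purine receptor of resting microglia, had a log2 fold change of 0.16 ± 0.10, and Tmem119 0.18 ± 0.15. Of 18 genes of disease-associated microglia, 6 were higher (Cd9, Axl, Lgals3, Ctsb, Apoe and Cd63), with a median of 0.27 and a wild-type median of 0.32. There were 2 at a median of 0.20 without KDEE 12 and 14, and with the choroid plexus covariate 2 at 0.12. Leaving out KDEE 12, KDEE 14, KDSH 3, KDSH 8 or KDSH 24 singly also gave 2, and KDEE 22 gave 3. Axl, a receptor for apoptotic cells, measured 2770, 2893, 2920, 2930 and 2758 in KDSH and 2940 to 3491 in KDEE. Its groups did not overlap, though KDEE 20 lay only just above the highest KDSH value, and the log2 fold change was 0.19 ± 0.06. Lgals3 was highest in KDEE 12 at 287 and lowest in KDEE 20 at 82.1, against 75.2 to 149 in KDSH.

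**Figure D3:**
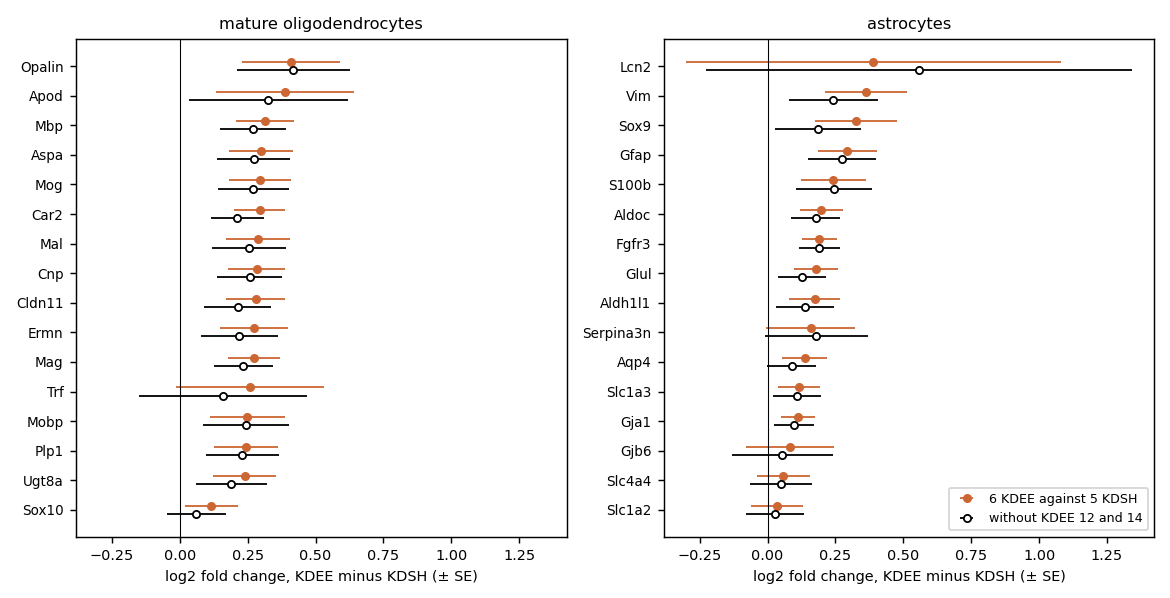
Log2 fold change (KDEE minus KDSH, ± SE) of each gene on the mature oligodendrocyte and astrocyte lists, for all 11 mice (filled) and without KDEE 12 and 14 (open). All the filled points lie above 0, at 0.12 to 0.41 for the oligodendrocyte and 0.03 to 0.39 for the astrocyte genes, and none of these genes has an adjusted p under 0.05 by edgeR.

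Lysosomal genes, many of them used by microglia, followed the same direction. Of 21, 8 were higher (Gusb, Ctsl, Npc2, Ctsb, Lamp2, Ctss, Atg7 and Ctsz) with a median of 0.14, and 1 was higher without KDEE 12 and 14 or without KDEE 12 alone. Leaving out any other KD mouse gave 2 (KDSH 24) to 12 (KDEE 20). Gusb, beta-glucuronidase, lay at 713 to 813 normalized counts in KDSH and 751 to 994 in KDEE (0.26 ± 0.08), with only KDEE 20 inside the KDSH range.

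Inflammatory groups were higher in part. Of 19 genes of the TNF and NF-kB response, 6 were higher and 1, Rela, was lower, with a median of 0.29. Bcl3, a nuclear cofactor of NF-kB, measured 49.4, 72.1, 48.1, 78.1 and 37.6 normalized counts in KDSH and 58.5 to 116 in KDEE (0.70 ± 0.24). KDEE 20 was the one KDEE mouse within the KDSH range. Its wild-type difference was 0.78 ± 0.25. Without KDEE 12 and 14 the list had 2 higher members and a median of 0.14. It also had 2 without KDEE 12 or KDSH 24 alone, and it had 3 without KDEE 14.

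Of 20 interferon-stimulated genes, 5 were higher (Ifit2, Bst2, Rtp4, Ifitm3 and Oasl2), 19 were positive and the median was 0.42, against -0.06 in wild-type mice. Bst2, a membrane tether of budding virus, was 842 and 755 in KDEE 12 and 14 and 208 to 314 in the other 4, against 134 to 266 in KDSH. Ifit2, an antiviral RNA-binding protein, was 369 to 536 in KDSH and 447 to 610 in KDEE (0.25 ± 0.09), and its difference without KDEE 12 and 14 was also 0.25. The median of the list without them was 0.21, with 1 member at the mark. With all 24 libraries the median was 0.16, with 1 higher and 1 lower, and with the choroid plexus covariate it was 0.09, with 1 higher. Of the 20, 2 had a difference between the enrichment effects at an unadjusted edgeR p under 0.05 (3.26% of all genes). Leaving out 1 KD mouse gave 1 (KDSH 24 or KDEE 14) to 11 (KDSH 8), where the median was 0.67.

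Of 11 genes of B and plasma cells, Ighm, Ighg2c and Igkc, which encode antibody chains, were higher, and all 11 were positive with a median of 0.71. Without KDEE 12 alone, and without KDEE 12 and 14, the median was 0.43 over the 10 and 9 genes then tested, each time with 2 at the mark, and with the choroid plexus covariate it was 0.08. Only 1 was at the mark without KDSH 3 or KDSH 18. Igkc lay at 11.5 to 41.8 normalized counts in KDSH and 13.8 to 78.9 in KDEE. Of 18 complement genes, Cd55 was higher and C4a lower, with a median of 0.24 that was 0.12 without KDEE 12 and 14, and C1qa gave 0.32 ± 0.18. All 15 MHC class I genes were positive with a median of 0.25. Only H2-M3 was higher at the mark (6.67%, near the 5.64% of all genes). In the 11 KD libraries alone 6 were higher (9.65% of all genes), and without WTEE 10 it was 9 (11.8%). Leaving out 1 KD mouse gave 0 to 4. Without KDEE 12 and 14 it was 0, with a median of 0.20. None of 10 MHC class II genes or 8 genes of T and NK cells reached the mark. The MHC class II median of 0.36 was 0.08 without KDEE 12 and 14. Antibody and MHC class II genes are also expressed by cells of the choroid plexus and meninges, whose part in these differences was not tested.

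Other cells of the brain's borders moved with the same libraries. Of 15 genes of meningeal fibroblasts, 4 were higher with a median of 0.51, and without KDEE 12 alone none was, nor without KDEE 12 and 14, where the median was 0.06. Igf2, a growth factor of meninges and choroid plexus, was 17340 and 6102 normalized counts in KDEE 12 and 14 and 1395 to 1862 in the other KDEE mice, against 1210 to 2243 in KDSH. Of 14 ependymal genes, 4 were higher, and 0 without KDEE 12, KDEE 14 or KDSH 8. Foxj1, the regulator of motile cilia, was 1904 and 1356 in KDEE 12 and 14 against 517 to 940 elsewhere. Among 10 mural genes Pdgfrb was higher, and among 16 endothelial genes none reached the mark. Adora2a, the adenosine receptor of striatal neurons, was the only 1 of 10 striatal genes that did, at 57.5 to 74.0 in KDSH and 70.6 to 150 in KDEE.

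Wnt, meiotic and DNA damage genes were listed because members of each were among the calls, so those members are no separate evidence. Of 30 Wnt ligands and receptors, Wnt3, Fzd6 and Fzd5 were higher and Wnt2b and Wnt3a lower, with a median of 0.10 that turned to -0.01 without KDEE 12 and 14. Wnt2b lay at 163 to 224 normalized counts in KDSH and 121 to 171 in KDEE (-0.47 ± 0.18). Sfrp5, Nkd1 and Sfrp1 were higher among 17 Wnt inhibitors and targets, none of them without KDEE 12 and 14, and Sfrp5, a secreted Wnt antagonist, was 273 and 141 in KDEE 12 and 14 against 10.6 to 52.3 elsewhere. Of 13 meiotic genes, Rad21l, a meiotic cohesin subunit, and Syce1, of the synaptonemal complex, were lower besides Sycp2. Rad21l lay at 49.1 to 60.9 in KDSH and 16.8 to 51.3 in KDEE (-0.73 ± 0.24). Of 22 DNA damage genes, Gadd45a, a stress-induced gene of growth arrest, was higher without overlap (94.0 to 142 in KDSH, 148 to 186 in KDEE, 0.45 ± 0.14), in contrast to Traip and Banp. Of 21 cadherins, Cdh3 was higher and Cdh24 and Cdh15 were lower.

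Smaller numbers came from the remaining stress and metabolic groups. Cryab, a small heat shock protein abundant in oligodendrocytes, was 3794 to 5376 normalized counts in KDSH and 4885 to 7611 in KDEE (0.47 ± 0.13), while Hsf1 was lower, and the 16 chaperones had a median of 0.03. Of 22 genes of cholesterol synthesis, only Insig1 was higher (0.26 ± 0.09). None of 16 glucocorticoid receptors and targets, 0 of 55 clustered protocadherins and 2 of 18 clock genes reached the mark, the latter being Per2 and Bhlhe40, both lower. Of 17 vascular growth factor genes, Fgf1 was higher (0.23 ± 0.07), and of 9 thalamic and habenular genes, Tnnt1.

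**Figure D4:**
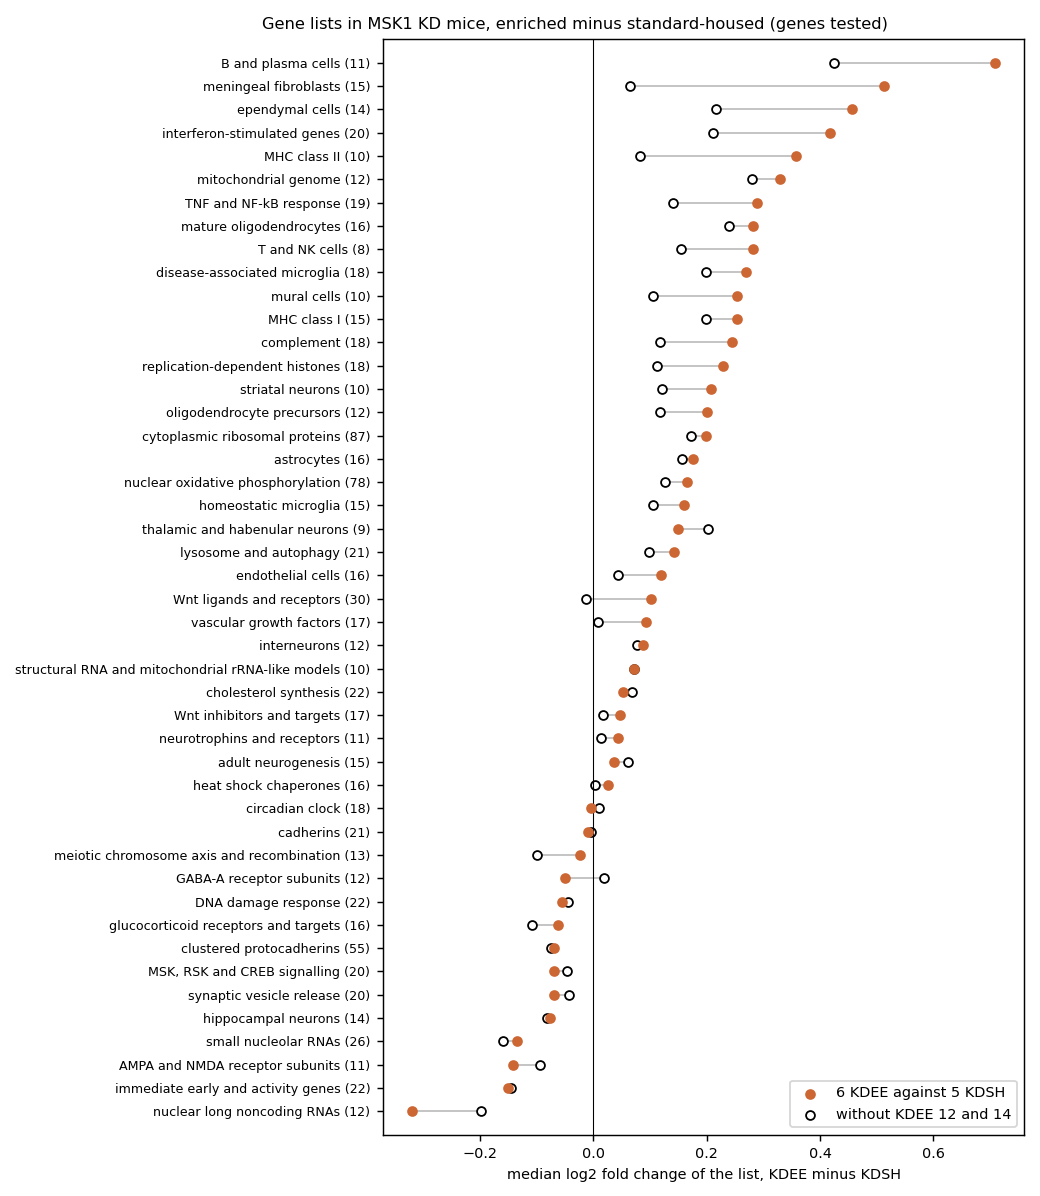
Median log2 fold change (KDEE minus KDSH) of each gene list, with the number of genes tested in brackets, for all 11 mice (filled) and without KDEE 12 and 14 (open). The choroid plexus, pituitary, red blood cell and satellite lists are not drawn, and the open points lie closer to 0 for most of the border and immune lists.

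Classes of RNA that track the make-up of a library also moved. Of 12 genes of the mitochondrial genome, 7 were higher with a median of 0.33 (1 higher, median 0.28, without KDEE 12 and 14), and their share of counts was 3 to 3.68% in KDSH and 3.15 to 4.26% in KDEE. Of 87 cytoplasmic ribosomal protein genes, 3 were higher (3.45%) and 83 were positive (median 0.20). Of 78 nuclear genes of oxidative phosphorylation, 3 were higher (3.85%) and 76 were positive (median 0.17). Both shares lie under the 5.64% of all genes. Of 12 nuclear long noncoding RNAs, 6 were lower (Mirg, Miat, Kcnq1ot1, Meg3, Snhg11 and Snhg14) with a median of -0.32, against 1 and -0.20 without KDEE 12 and 14. Meg3 lay at 174900 to 250800 normalized counts in KDSH and 119200 to 205400 in KDEE (-0.40 ± 0.17). The share of counts on no annotated gene was 9.81 to 12.34% in KDSH (median 11.76%) and 8.41 to 10.94% in KDEE (median 9.17%). The part of that share and of these classes in the glial and neuronal differences was not tested.

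Repeat-derived models varied widely within groups. Gm10800, a satellite repeat model, measured 5347, 933, 14.6, 886 and 16.5 normalized counts in KDSH 1, 3, 8, 18 and 24 and 3.08 to 200.1 in KDEE. KDSH 8 and 24 lay inside the KDEE range, and the exact permutation test on log2 CPM gave p = 0.106 (0.0476 to 0.262 with 1 mouse left out). All 5 satellite models tested were lower at an unadjusted edgeR p under 0.05 with a median of -4.32, and their wild-type median was 2.77. Of 26 small nucleolar RNAs, 1 was higher and 2 were lower, of 18 replication-dependent histone genes 2 were higher, and of 10 structural RNA models none reached the mark.

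The effect of enrichment in wild-type mice (6 WTEE against 4 WTSH libraries kept) was set beside that in MSK1 KD mice. The genes were chosen by their KD values, so a larger KD than WT difference in them is not independent evidence of a difference between genotypes. No gene had a difference between the enrichment effects by edgeR (0 of 20187 called, 0%, smallest adjusted p 0.419), and 659 genes had one at an unadjusted p under 0.05 (3.26%). DESeq2 called 20, comprising Gh, satellite repeat models and unnamed gene models.

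Several named genes gave values of similar size in both genotypes, and others did not. Cd14 gave 0.53 in KD and 0.46 in WT, Slc44a5 -0.45 and -0.41, Mapkapk5 -0.48 and -0.39, and Myo1h -0.66 and -0.42. For Sycp2 the log2 fold changes were -0.74 ± 0.13 in KD and -0.09 ± 0.14 in WT, for Plekho2 0.47 ± 0.10 and -0.01 ± 0.11, and for Wnt3 0.61 ± 0.13 and -0.03 ± 0.14. Gm44831 gave -0.76 in KD and 0.31 in WT. None of these differences between genotypes had an adjusted p under 0.05 by edgeR.

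**Figure D5:**
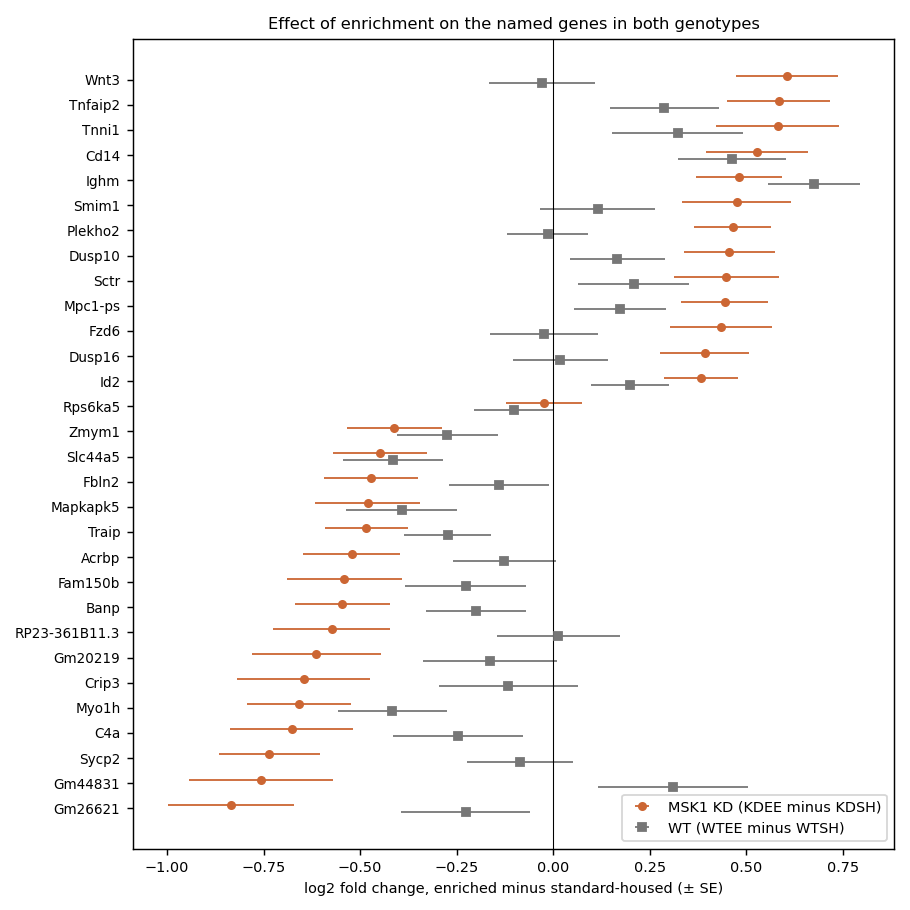
Log2 fold change (enriched minus standard-housed, ± SE) of the named genes other than Ttr, Gh and Cdh3 in MSK1 KD (circles) and wild-type mice (squares). Cd14, Slc44a5 and Mapkapk5 lie close together in both genotypes, and Sycp2, Plekho2 and Wnt3 lie near 0 in wild-type mice.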

How the data were processed

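Hippocampal poly-A RNA of individual mice was prepared with TruSeq v2 and sequenced as paired ends on a HiSeq 4000. The authors trimmed reads with Skewer, checked them with FastQC 0.11.3, aligned them to GRCm38 with STAR 2.5 and counted uniquely mapped pairs per gene with HTSeq 0.6.1p1 without strand. The deposited values are raw counts for 49568 gene symbols per library. Counts on no single gene were set aside. They made up 14.06 to 16.83% in KDSH (median 16.19%) and 13.05 to 15.39% in KDEE (median 13.7%). KDSH 6 and WTSH 4 and 7 were left out as in the study.

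Counts were fitted in edgeR 4.0.16 (R 4.3.3) with TMM scaling, filterByExpr and the quasi-likelihood test over 21 libraries in 4 groups, and the KDEE minus KDSH contrast was tested with Benjamini-Hochberg adjustment over 20187 genes. A call needed an adjusted p under 0.05 and an absolute log2 fold change above 0.38. DESeq2 1.42.0 was the alternative, with adjusted p-values it left undefined kept so. Normalized counts are TMM-scaled counts at the mean library size. Single values were compared by exact permutation over the 462 splits of the 11 mice. Positions came from GENCODE M21 on GRCm38.

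Named genes were those called by either tool; the 12 higher and 12 lower non-overlapping genes with the smallest unadjusted p, an absolute log2 fold change above 0.38 and a mean of at least 50 normalized counts; Rps6ka5, Ttr and Gh; and in each list up to 4 members at an unadjusted p under 0.05 and, for cell types, the first 2 members. Other list members at that mark, and further members given for context, were named after their values were seen. The comparison, the members and the 50 gene lists were chosen with earlier results of these data known, so list counts are descriptions and carry no test. Alternatives were other scalings, filters, sample sets, DESeq2, a choroid plexus covariate and leaving out each mouse. The fits without KDEE 12 and 14, also without KDSH 8, and the added DESeq2 fits were chosen after seeing the data. In simulated counts edgeR recovered 116 of 200 genes changed by 0.5 on the log2 scale (58%, among 20050 genes) and 179 of 200 changed by 1 (89.5%, among 19993 genes), with 4 and 11 false calls. DESeq2 recovered 135 and 187 of them, with 19 false among 154 calls (20506 genes) and 24 false among 211 (21221 genes). The simulated counts were drawn independently for each gene and library, with no libraries rich in RNA of other tissues. Changed genes had a mean of at least 50 counts and low variation between libraries. The shares recovered are therefore not the power in the real data.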

Additional observations from a re-analysis of the deposited data

Results flagged for a closer look

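Of 70 groups of values examined, 12 had a sample whose gap to its nearest neighbour exceeded Dixon's critical value, and chance alone flags about 1 in 20 groups. Of these, 5 were in the libraries richest in choroid plexus or pituitary RNA, KDEE 12 and KDSH 8. Ttr in KDEE 12 was 434900 normalized counts against 3027 to 119800 in the other KDEE mice. Cdh3 in the same library was 384 against 1.03 to 131, Fzd6 was 763 against 433 to 545, and Gh was 37.7 against 0.954 to 10.3. Gh in KDSH 8 was 6162 normalized counts against 0 to 307 in the other KDSH mice.

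The remaining values stood apart singly. Tnfaip2 was 566 normalized counts in KDEE 22 against 336 to 402 in the other KDEE mice, and 349 in KDSH 18 against 241 to 256 in the other KDSH mice. In KDEE 20, Id2 was 3223 against 3607 to 3754 and Dusp10 was 279 against 331 to 349, the lowest of the KDEE group for both. Cd14 was 156 in KDEE 9 against 176 to 188. Gm44831 was 100 in KDSH 1 against 57.5 to 67.6. Structural RNA took 1.68% of counts in KDEE 15 and 0.640 to 0.967% in the other KDEE libraries. The causes were not tested.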

How the results depend on the processing

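With edgeR, 0 genes were called under every other scaling, filter and sample set run except the fit of the 11 KD libraries, which called 1, and under DESeq2's Wald test, which called 14. For the difference between genotypes DESeq2 called 20. The number of genes at an unadjusted p under 0.05 was 1813 higher and 2046 lower in the 11 KD libraries alone, 371 and 579 with the choroid plexus list as a covariate, 410 and 549 without KDEE 12 and 14, and 291 and 459 without KDSH 8 as well. Leaving out 1 mouse gave 609 (without KDEE 12) to 2367 higher and 821 to 2066 lower genes, the highest counts of both being without WTEE 10. DESeq2 calls numbered 0 to 206 with 1 mouse left out, 22 with all 24 libraries, 0 without KDEE 12 and 14 and 0 without KDSH 8 as well. The Ttr difference in mean log2 CPM was 3.09 to 4.6 with 1 mouse left out, 3.61 to 4.3 where the exact permutation p passed 0.05 (4 KDSH mice, which leaves fewer splits), and the difference in mean CPM was 1940. The log2 fold change of Rps6ka5, which is close to 0, was 0.034 with all 24 libraries and 0.022 with the covariate. For the other named genes no log2 fold change reversed, while of 50 list medians 16 shifted by more than 0.1 without KDEE 12 and 14 (3 changed sign: GABA-A receptors, clock, Wnt ligands and receptors), 18 with the covariate (5 changed sign), 15 without KDSH 8 as well (5), and 2 to 10 with 1 KD mouse left out (0 to 5). The causes were not tested. No paired analysis was possible because each mouse number occurs in 1 group only. Cdh3 and Gh lay near the floor in many libraries whatever their depth, and Gh was 0 in KDSH 18, the deepest KDSH library.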
